A study of Bos taurus with 11 samples.

Results

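Single bovine blastocysts were examined for the core genes of the adherens junction and the tight junction, the contacts that hold the cells of an epithelium together and seal the space between them. The 10 genes, taken by name, were CDH1, CTNNB1, JUP, CTNNA1 and CTNND1 for the adherens junction, and TJP1, OCLN, CLDN4, CLDN7 and F11R for the tight junction. Of these, 9 were listed in both tables, each by 1 RefSeq transcript, among 12056 transcripts listed in either table. The RefSeq gene table used here holds TJP1 under model accessions alone, and TJP1 was not analysed here.

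The embryos, from in vitro fertilization, were collected on day 7, 3 in the WT control group, 4 in the GATA3 KO group and 4 in the CDX2 KO group. All of them, the WT control embryos included, had been injected at the zygote stage with mRNA of BE3, a cytosine base editor that changes C to T where a guide RNA directs it. GATA3 KO embryos had also been given a mix of GATA3 sgRNAs and CDX2 KO embryos a mix of CDX2 sgRNAs, meant to create premature stop codons, and WT control embryos received no guide. The edit carried by each sequenced embryo was not analysed here, and the sources used here do not say which embryos shared a fertilization batch. Each library holds polyadenylated RNA of a whole blastocyst, so that fewer cells of a type and less RNA per cell cannot be told apart. One table holds the GATA3 KO embryos with the WT control embryos and the other the CDX2 KO embryos with the same WT control embryos, each normalized on its own.

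In the first epithelium of the embryo, the trophectoderm, E-cadherin (CDH1) joins neighbouring cells through its outer part. Its tail inside the cell binds beta-catenin (CTNNB1) or the closely related plakoglobin (JUP), which in turn bind alpha-catenin (CTNNA1), the link to actin, while CTNND1 binds nearer to the membrane and keeps cadherin at the cell surface. Occludin (OCLN), the claudins and the immunoglobulin-type adhesion protein F11R make up the tight junction in the membrane, and TJP1 is a scaffold beneath it. Tight junctions of the trophectoderm seal the blastocoel as it fills with fluid. Apart from its place at the junction, beta-catenin is the transcriptional partner of TCF proteins in Wnt signalling.

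An embryo had 150057 to 540775 recovered counts in the GATA3 KO table and 100731 to 662962 in the CDX2 KO table, where embryo 3 had the lowest total. The same 3 WT control embryos had 1.78 to 1.85 times as many counts in the table of CDX2 KO as in the other, over the 8567 transcripts of both, and 1.81 to 1.86 times as many for the 9 junction transcripts, so values were compared only within a table. Of the targeted genes, GATA3 fell from a mean normalized count of 79.9 ± 8.17 (SD, n = 3) to 12.2 ± 1.58 (SD, n = 4) in GATA3 KO embryos, without overlap (p = 0.0286 in a two-sided exact permutation test, and 3 embryos against 4 allow no smaller p). CDX2 fell from 8.94 ± 2.09 (SD, n = 3) to 3.57 ± 1.34 (SD, n = 4) in its own KO group (same exact test, p = 0.0286). In the GATA3 KO table the WT control mean of CDX2 was 7.16 ± 2.53 (SD, n = 3) and the GATA3 KO mean 2.20 ± 1.52 (SD, n = 4), also without overlap (same exact test, p = 0.0571). The trophectoderm keratins KRT8 and KRT18 were abundant in every embryo, and the summed normalized count of the trophectoderm markers was 3511 to 8079 in WT control and 3944 to 5630 in GATA3 KO embryos. Of the 7 trophectoderm markers tested in GATA3 KO embryos, TFAP2C rose and GATA2 fell (1.03 and -1.16 in log2 fold change, limma adjusted p = 0.0442 and 0.0344). Over all transcripts tested in that table, 1.55% were higher and 0.468% lower past the threshold given below. In the CDX2 KO table the trophectoderm sums were 4934 to 12494 and 2477 to 8461. The summed normalized count of the epiblast markers was 116 to 149 in WT control embryos. It was 55.0 in GATA3 KO embryo 3, the embryo with the highest CTNNB1, and 125 to 175 in the other 3. None of the 3 epiblast and 3 primitive endoderm markers tested passed the threshold in GATA3 KO embryos, with median log2 fold changes of -0.95 and -0.42, and the endoderm sums were 639 to 794 in WT control and 523 to 1204 in GATA3 KO. The part of these markers in the junction results was not tested. Of the 6 cumulus cell markers, the GATA3 KO table held 2, with 6 to 13 counts in all in WT control and 2 to 10 in GATA3 KO embryos. Counts of the Y-linked USP9Y, DDX3Y and EIF1AY were 7 to 21 in WT control and 0, 0, 1 and 45 in the GATA3 KO embryos numbered 3 to 6. In the table of CDX2 KO, embryo 5 had 39 of them and embryos 2 to 4 had 0. The part of sex in the differences below was not tested, and none of the 10 genes is X-linked in the ARS-UCD2.0 annotation.

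In GATA3 KO embryos, 1 of the 9 junction genes rose past the threshold, CTNNB1, and none fell (limma, Benjamini-Hochberg adjusted p of at most 0.05 over 4271 transcripts, with a fold change of 1.5 or more, or of 0.6 or less). Over all transcripts tested in that table, 1.55% were higher and 0.468% lower past the same threshold, and 7.05% were lower without any overlap between the groups. Of the 5 adherens junction genes, CTNNB1, CTNNA1 and CTNND1 lay higher in all 4 GATA3 KO embryos than in any WT control embryo, where 11.9% of all transcripts tested did so. CDH1 and JUP had negative log2 fold changes, and their groups overlapped. The median log2 fold change was 0.51 for the 5 adherens junction genes and 0.22 for the 4 tight junction genes, against 0.11 for all transcripts tested. A log2 fold change is given here on the scale of log2(normalized count + 1).

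CTNNB1 (NM_001076141) had normalized counts of 102, 44.3 and 57.5 in WT control embryos 1 to 3, and of 182, 130, 121 and 134 in GATA3 KO embryos 3 to 6. Every GATA3 KO embryo exceeded the highest WT control embryo. These values rest on 37 to 129 recovered counts in WT control and on 102 to 301 in GATA3 KO. The 95% Poisson intervals of GATA3 KO embryo 5 (99.1 to 147) and WT control embryo 1 (85.0 to 121) overlapped. Poisson intervals, here and below, cover the counting error of reads only and not that of cDNA amplification. The log2 fold change was 1.12 (standard error 0.28, 95% interval 0.53 to 1.72, adjusted p = 0.0468 from limma), or 1.01 above the median of all transcripts tested. The call lay close to the threshold. The adjusted p was 0.0407 with DESeq2 and 0.0606 with edgeR on the recovered counts and 0.0508 after rescaling by median ratios in limma. A limma covariate for 3 or more Y-linked counts, which all WT control embryos had, left the KO difference to GATA3 KO embryo 6 alone, at 1.06 with an adjusted p of 0.382. In the 7 fits that left out an embryo, the log2 fold change stayed between 0.86 and 1.45, but the call held in 2 of them, without WT control embryo 1 and without GATA3 KO embryo 6.

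**Figure D1:**
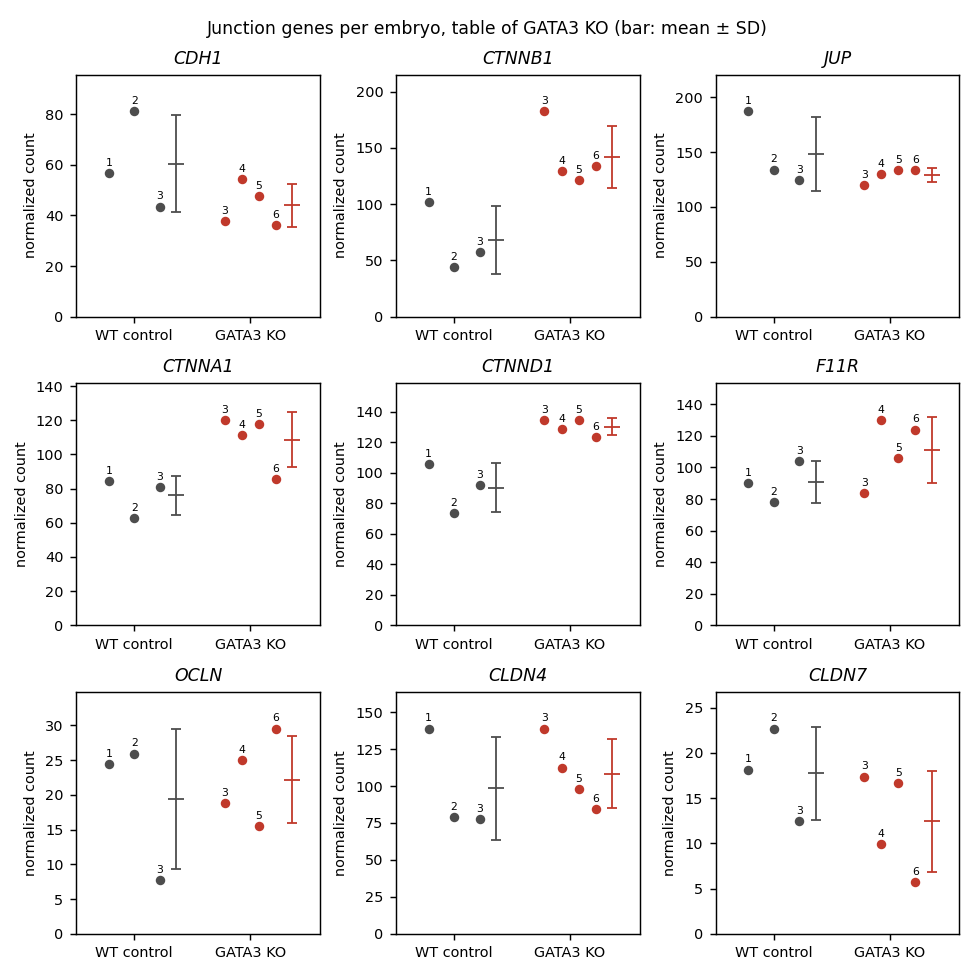
Normalized counts (vertical axes, from 0, a scale of its own for each gene) of 9 junction genes in WT control embryos 1 to 3 (grey) and GATA3 KO embryos 3 to 6 (red), each point an embryo with its number and each bar a mean ± SD. CTNNB1, CTNNA1 and CTNND1 show no overlap between the groups, and the points of CTNND1 and JUP lie close together in GATA3 KO.

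CTNND1 (NM_001192402) had normalized counts of 106, 73.5 and 91.7 in WT control embryos and of 135, 128, 135 and 123 in GATA3 KO embryos. The GATA3 KO embryos all lay above the controls, and the highest of them was 1.09 times the lowest, against 1.44 times in WT control. The 95% Poisson intervals of the nearest embryos, 104 to 145 in GATA3 KO embryo 6 and 88.6 to 125 in WT control embryo 1, overlapped. With a log2 fold change of 0.54 (95% interval 0.05 to 1.03, adjusted p = 0.186 from limma), CTNND1 did not pass the threshold. The groups also stayed apart after rescaling by median ratios and after quantile normalization, as did 9.15% and 8.76% of all transcripts tested in this direction. For CTNNA1 (NM_001035366), the normalized counts were 84.4, 62.7 and 80.8 in WT control and 120, 111, 118 and 85.4 in GATA3 KO embryos. GATA3 KO embryo 6 exceeded the highest WT control embryo by less than the width of counting error, and the groups overlapped under both of the other scalings. The log2 fold change of CTNNA1 was 0.51 (standard error 0.24, adjusted p = 0.223 from limma).

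CDH1 (NM_001002763), the cadherin itself, did not share this pattern. Its normalized counts were 56.8, 81.1 and 43.5 in WT control embryos and 37.6, 54.3, 47.6 and 36.1 in GATA3 KO embryos. GATA3 KO embryos 3 and 6 lay below every WT control embryo and embryos 4 and 5 lay within the range of the controls. The log2 fold change was -0.43 (95% interval -1.02 to 0.16, adjusted p = 0.385 from limma), and -0.20 without WT control embryo 2. JUP (NM_001004024), the close relative of CTNNB1, had normalized counts of 187, 134 and 124 in WT control and of 120, 130, 133 and 134 in GATA3 KO embryos. Here WT control embryo 1 stood above the remaining 6 embryos, which lay between 120 and 134. The log2 fold change of JUP was -0.18 (95% interval -0.66 to 0.31, adjusted p = 0.685 from limma), and without WT control embryo 1 it was 0.0017. After rescaling by median ratios or quantile normalization, JUP was lower in all 4 GATA3 KO embryos than in any WT control embryo, as were 9.58% and 9.13% of all transcripts tested, and neither fit called it.

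The 4 tight junction genes overlapped between the groups, and none passed the threshold. F11R (NM_174095) had normalized counts of 90.0, 77.8 and 104 in WT control embryos and 83.9, 130, 106 and 124 in GATA3 KO embryos. In 3 of the 4 GATA3 KO embryos it lay above every WT control embryo, and the log2 fold change was 0.28 (95% interval -0.24 to 0.80, adjusted p = 0.520 from limma). CLDN4 (NM_001014391), a claudin of many simple epithelia, had 139, 78.9 and 77.7 in WT control and 139, 112, 97.7 and 84.6 in GATA3 KO embryos. Its highest values in the groups were nearly equal, and the log2 fold change was 0.17 (95% interval -0.40 to 0.74, adjusted p = 0.748 from limma).

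CLDN7 (NM_001040519) and OCLN (NM_001082433) were the least counted of the 9 genes. The normalized counts of CLDN7 were 18.1, 22.7 and 12.4 in WT control and 17.4, 9.91, 16.7 and 5.75 in GATA3 KO embryos, from 7 to 23 recovered counts. GATA3 KO embryo 6 was the lowest, with 7 counts (95% Poisson interval 2.81 to 14.4, counting error only), and the log2 fold change was -0.56 (95% interval -1.42 to 0.31, adjusted p = 0.441 from limma). OCLN had 24.5, 25.9 and 7.77 in WT control and 18.8, 25.0, 15.5 and 29.6 in GATA3 KO embryos, from 5 to 58 recovered counts. WT control embryo 3 was the lowest of the 7, and the log2 fold change was 0.31 with all embryos (95% interval -0.51 to 1.13, adjusted p = 0.664 from limma) and -0.21 without it.

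Since catenins bind the cadherin tail, the transcripts were also set against each other within an embryo. A ratio of normalized counts does not depend on how the embryo was scaled. Differences in log2 ratio, here and below, are of normalized counts + 1 and so depend slightly on that scaling. For CTNNB1 to JUP in GATA3 KO the difference was 1.30, 1.31 and 1.24 with 1, 0.1 and 5 added. The ratio of CTNNB1 to CDH1 and to JUP, 2 of its 3 ratios, and that of CTNND1 to CDH1 were higher in every GATA3 KO embryo than in any WT control embryo. So were 41.7% of the ratios of CTNNB1 to any other tested transcript and 24.3% of those of CTNND1. No ratio passed after adjustment. That was nearly fixed in advance, since 3 embryos against 4 allow no p below 0.0286 and 10 ratios were adjusted together. The ratios use the values described above, and the genes were chosen with the rise of CTNNB1 known, so they are not independent of those results. In counts, CTNNB1 stood against JUP at 129 to 237, 41 to 124 and 37 to 80 in WT control embryos 1 to 3. In GATA3 KO embryos 3 to 6 the same pairs were 126 to 83, 301 to 302, 102 to 112 and 163 to 163. The ratio was thus 0.544, 0.331 and 0.463 in WT control and 1.52, 0.997, 0.911 and 1 in GATA3 KO embryos. With 1 added to each normalized count, the group means of its log2 were 1.30 apart (p = 0.0286 by a two-sided exact permutation test, with a Benjamini-Hochberg adjusted value of 0.0952 over 10 ratios). Because transcripts differ in length, these ratios compare embryos and not the numbers of molecules of 2 genes.

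The ratio of CTNNB1 to CDH1 was 1.79, 0.547 and 1.32 in WT control and 4.85, 2.39, 2.55 and 3.70 in GATA3 KO embryos. The difference in mean log2 was 1.55 (two-sided exact permutation test, p = 0.0286, adjusted 0.0952), and 1.06 without WT control embryo 2, which had the lowest CTNNB1 and the highest CDH1. CTNND1 to CDH1 gave 1.86, 0.907 and 2.11 in WT control and 3.58, 2.37, 2.83 and 3.41 in GATA3 KO embryos, with a difference of 0.96 (two-sided exact permutation test, p = 0.0286, adjusted 0.0952), or 0.59 without WT control embryo 2. CTNNB1 to CTNNA1 overlapped between the groups, at 0.707 to 1.21 in WT control and 1.03 to 1.57 in GATA3 KO embryos (two-sided exact permutation test, p = 0.143, adjusted 0.343). CLDN4 to CLDN7 overlapped as well, at 3.48 to 7.65 and 5.86 to 14.7 (two-sided exact permutation test, p = 0.171, adjusted 0.343).

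**Figure D2:**
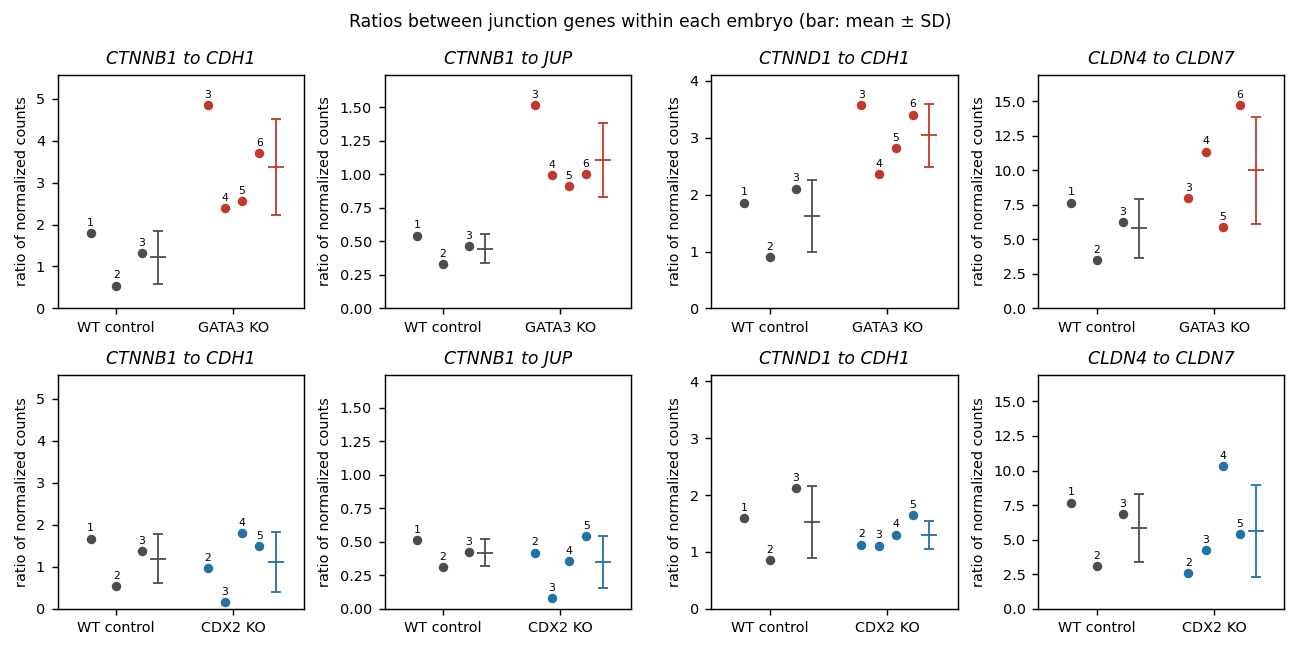
Ratio of the normalized counts of 2 junction genes within an embryo (vertical axes, from 0, shared by the panels of a column), for the table of GATA3 KO (upper row, red) and that of CDX2 KO (lower row, blue) beside the WT control embryos of that table (grey), with mean ± SD. The GATA3 KO embryos lie above all WT control embryos for CTNNB1 to CDH1, CTNNB1 to JUP and CTNND1 to CDH1, whereas CDX2 KO embryos overlap with them in every panel.

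In CDX2 KO embryos none of the 9 junction genes passed the threshold, and the groups overlapped for each of them. Over the 5719 transcripts tested in that table, 0% passed with limma in either direction, 187 had an unadjusted p under 0.05, and edgeR and DESeq2 called 1 and 10. The groups did not overlap for 5.88% of them. Among the junction genes the smallest unadjusted p from limma was 0.255, for CTNND1. Log2 fold changes ran from -0.71 to 0.24, with 6 below 0 and 3 above it, and their median was -0.26 against -0.15 for all transcripts tested.

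CTNNB1 had normalized counts of 148, 57.7 and 75.7 in the WT control embryos of this table and of 73.5, 6.99, 129 and 105 in CDX2 KO embryos 2 to 5. Embryo 3 stood far below the others, with 3 recovered counts, which is the floor of detection (95% Poisson interval 0.619 to 8.77, counting error only). The log2 fold change was -0.71 (95% interval -2.43 to 1.01, adjusted p = 0.907 from limma) and 0.20 without CDX2 KO embryo 3. This embryo also had the lowest total and was the lowest of the 4 CDX2 KO embryos for CDH1, CTNNA1, CTNND1, JUP and F11R. CTNND1 had 142, 91.6 and 117 in WT control and 85.8, 46.6, 92.9 and 116 in CDX2 KO embryos, with a log2 fold change of -0.50 (95% interval -1.41 to 0.41, adjusted p = 0.900 from limma).

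CDH1 had 88.8, 107 and 55.0 in WT control and 76.0, 41.9, 71.3 and 70.3 in CDX2 KO embryos, 3 of which lay within the range of the controls. Its log2 fold change was -0.35 (95% interval -1.23 to 0.54, adjusted p = 0.915 from limma). CTNNA1 was the adherens junction gene with the least difference, at 107 ± 23.3 (SD, n = 3) and 111 ± 23.0 (SD, n = 4), with a log2 fold change of 0.04 (95% interval -0.79 to 0.88). JUP lay between 179 and 289 in WT control and between 90.9 and 362 in CDX2 KO embryos, with embryos 2 and 3 below every control and embryo 4 above them. Its log2 fold change was -0.21 (95% interval -1.24 to 0.82).

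Among the tight junction genes, CLDN4 was highest in CDX2 KO embryo 4 and had a range of 98.0 to 256, against 99.5 to 209 in WT control embryos. CLDN7 ran from 24.9 to 38.0 in CDX2 KO and from 16.0 to 32.4 in WT control embryos. F11R ran from 48.9 to 179 and from 107 to 148, and OCLN from 8.58 to 23.2 and from 8.02 to 35.5. The log2 fold changes of CLDN4, CLDN7, F11R and OCLN were 0.12, 0.24, -0.26 and -0.54, and all of their 95% intervals included 0. Without WT control embryo 3 the value of OCLN was -1.18, and without WT control embryo 1 it was -0.17. The 5 ratios also overlapped, with a two-sided exact permutation p of 0.686 or more.

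**Figure D3:**
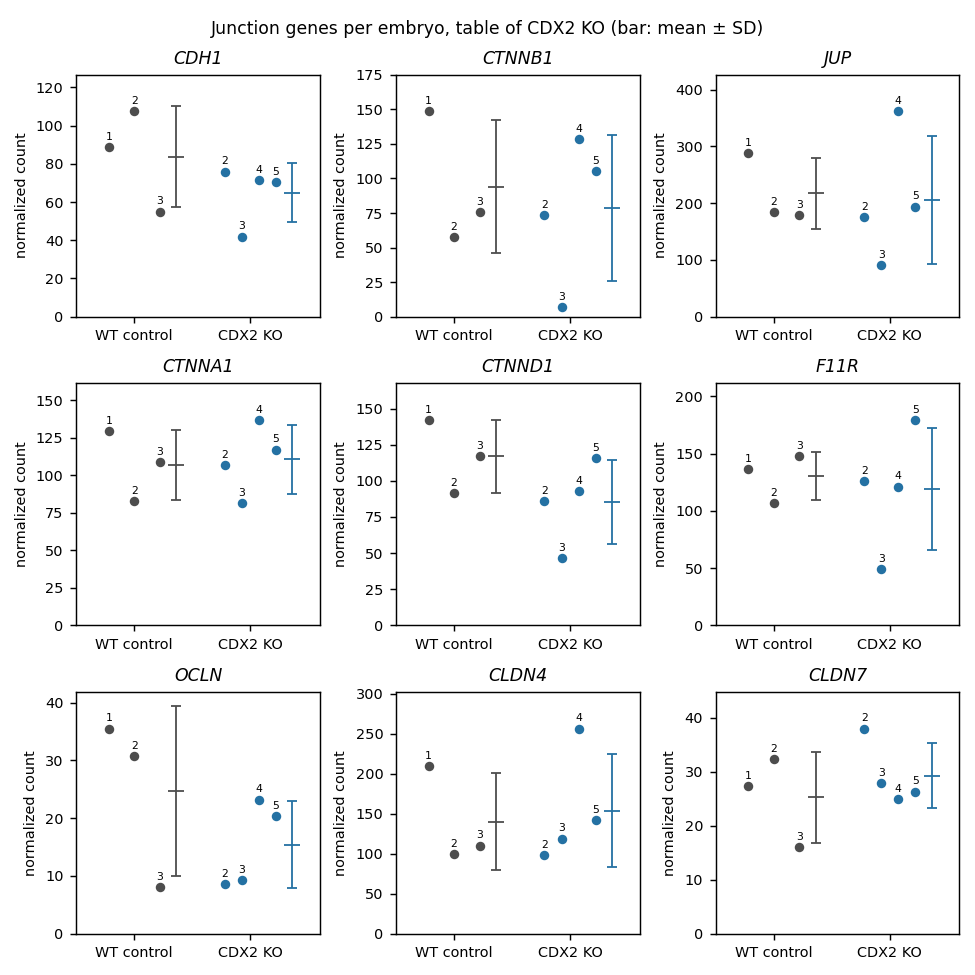
Normalized counts (vertical axes, from 0, a scale of its own for each gene) of 9 junction genes in WT control embryos 1 to 3 (grey) and CDX2 KO embryos 2 to 5 (blue), each point an embryo with its number and each bar a mean ± SD. The groups overlap for every gene, and CDX2 KO embryo 3 is lowest for CTNNB1, with 3 recovered counts.

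**Figure D4:**
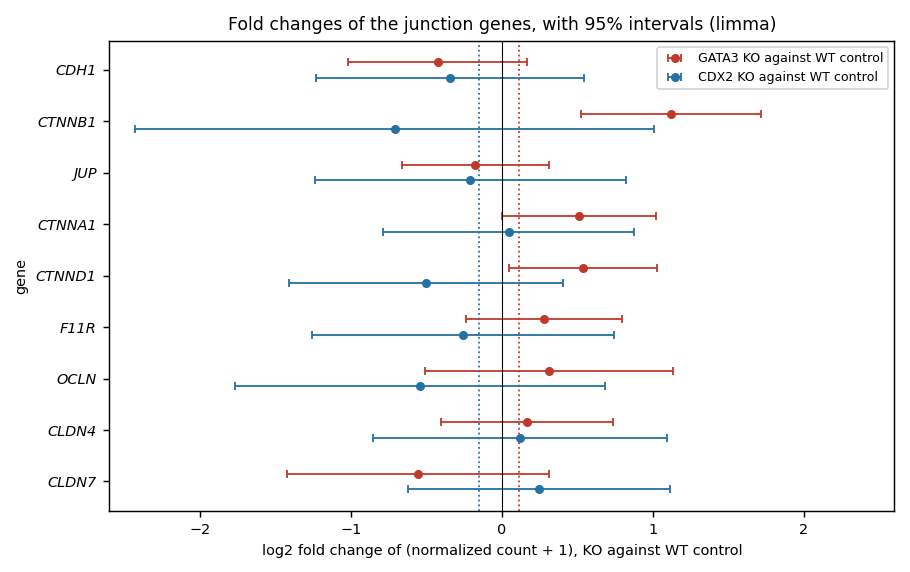
Log2 fold change of normalized count + 1 (horizontal axis) for each of 9 junction genes, GATA3 KO (red) and CDX2 KO (blue) against WT control, with 95% intervals from limma and dotted lines at the median of all transcripts tested, 0.11 and -0.15. The intervals of CTNNB1 and CTNND1 in GATA3 KO lie above 0, and those of CDX2 KO are wider and all include 0.

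Side by side, the log2 fold changes in GATA3 KO and CDX2 KO embryos were 1.12 and -0.71 for CTNNB1, 0.54 and -0.50 for CTNND1, 0.51 and 0.04 for CTNNA1, and -0.43 and -0.35 for CDH1. Both comparisons share the WT control embryos and come from tables normalized separately, and the difference between them was not tested. The WT control embryos themselves varied. WT control embryo 1 had the highest CTNNB1, JUP and CLDN4 of the 3 in both tables, and WT control embryo 3 the lowest OCLN, CLDN7 and CDH1.

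The other genes of the junction pathway were examined in a list of 80. Of these, 33 were tested in the table of GATA3 KO and 40 in that of CDX2 KO, and none passed the threshold in either. Their median log2 fold change in GATA3 KO embryos was 0.13, against 0.11 for all transcripts tested, with 20 above 0 and 13 below it. In CDX2 KO embryos it was -0.21 against -0.15, with 14 above 0 and 26 below it.

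In the table of GATA3 KO, 1 of the 33, CSNK1A1, was higher without overlap between the groups, against 11.9% of all transcripts tested. CSNK1A1 is a kinase of the complex that marks beta-catenin for degradation. Its normalized counts were 37.9, 36.7 and 35.7 in WT control and 75.3, 71.9, 51.2 and 89.5 in GATA3 KO embryos. Its log2 fold change of 0.92 ± 0.26 (standard error) had an adjusted p of 0.0626 (limma). AXIN1, a scaffold of the same complex, was at -1.05 ± 0.51 (standard error, adjusted p = 0.229 from limma). Of the actin linkers, zyxin (ZYX) had 195, 86.5 and 118 in WT control and 56.4, 82.7, 91.7 and 66.5 in GATA3 KO embryos. GATA3 KO embryo 5 exceeded WT control embryo 2, and the log2 fold change was -0.78 (adjusted p = 0.130 from limma and 0.0449 from DESeq2). Without WT control embryo 1 ZYX was at -0.46 (adjusted p = 0.322 from limma), and without WT control embryo 2 AXIN1 was at -0.66. VCL, which binds alpha-catenin under tension, was at 0.24.

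The desmosome genes DSP and PKP2, which anchor keratin filaments, had log2 fold changes of -0.58 and 0.45 in GATA3 KO embryos. The GATA3 KO embryos had 47.6 to 56.9 normalized counts of DSP, inside the WT control range of 35.7 to 124. The tight junction scaffold CGN was at 0.40. CLDN6 and LSR were the 2 tested among the other tight junction membrane proteins, at 0.13 and -0.32. The polarity genes PRKCI and CRB3 were at 0.48 and 0.44, the connexin GJB5 at 0.14, the nectin NECTIN2 at 0.87 and GRHL1, a relative of the epithelial regulator GRHL2, at 0.50. The adjusted p of these genes ran from 0.325 to 0.859 (limma). Of the genes named here from the wider list, CSNK1A1 alone stayed within 1.5 times of its value in GATA3 KO whichever embryo was left out. Without WT control embryo 3, NECTIN2 was at 0.014, CGN at 0.0026, VCL at -0.12, CLDN6 at -0.14, PKP2 at 0.13, CRB3 at 0.25 and DSP at -1.14. Without WT control embryo 2, LSR was at 0.10, DSP at -0.26 and GRHL1 at 0.29, without WT control embryo 1 PRKCI was at 0.15, and without GATA3 KO embryo 6 GJB5 was at -0.018. On the recovered counts CLDN6 was at -0.059 with edgeR and -0.064 with DESeq2.

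In the table of CDX2 KO, CXADR, a tight junction adhesion protein, was the 1 gene of the 40 without overlap between the groups, where 3.36% of all transcripts tested were lower in the same way. Its mean was 14.8 ± 2.05 (SD, n = 3) in the controls and 9.50 ± 3.37 (SD, n = 4) in the CDX2 KO group. The normalized counts of the CDX2 KO embryos ran from 4.66 in embryo 3 to 12.3, and the log2 fold change was -0.65 (adjusted p = 0.900 from limma). All 5 desmosome genes tested had log2 fold changes below 0, from -0.72 for PKP2 and -0.67 for DSP to -0.30. Their median was -0.52, against -0.15 for all transcripts tested, most of which were thus below 0 as well. Of the 7 trophectoderm markers tested in the same table, 6 were also below 0, with a median of -0.65 and 1 of them lower without overlap, and their part in the desmosome values was not tested. ZYX and CTNNAL1 were at -1.01 and -0.86, CLDN3 at -0.95, and CSNK1A1, EZR and GRHL1 between -0.63 and -0.59. On the other side, LLGL2 was at 0.62, NECTIN2 at 0.48, GSK3A at 0.43, MAGI3 at 0.34 and OVOL1 at 0.14. GJB5 was at -0.29 and CDH3 at 0.02. The adjusted p of these genes ran from 0.900 to 0.994 (limma). Whichever embryo was left out, LLGL2 alone of these stayed within 1.5 times of its value. Without CDX2 KO embryo 3, in which CLDN3 had no count, CLDN3 was at 0.080, CSNK1A1 at 0.040, GJB5 at 0.32, PKP2 at -0.17, EZR at -0.22 and CXADR at -0.38. Without WT control embryo 3 NECTIN2 was at -0.43, and without WT control embryo 2 OVOL1 was at -0.37 and CDH3 at -0.11. DSP was at -1.29 without WT control embryo 3 and at -0.35 without WT control embryo 2. Without WT control embryo 1 ZYX was at -0.64 and GRHL1 at -0.22, and without CDX2 KO embryo 2 CTNNAL1 was at -0.51. GJB5 was at 0.14 with edgeR and 0.15 with DESeq2.

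**Figure D5:**
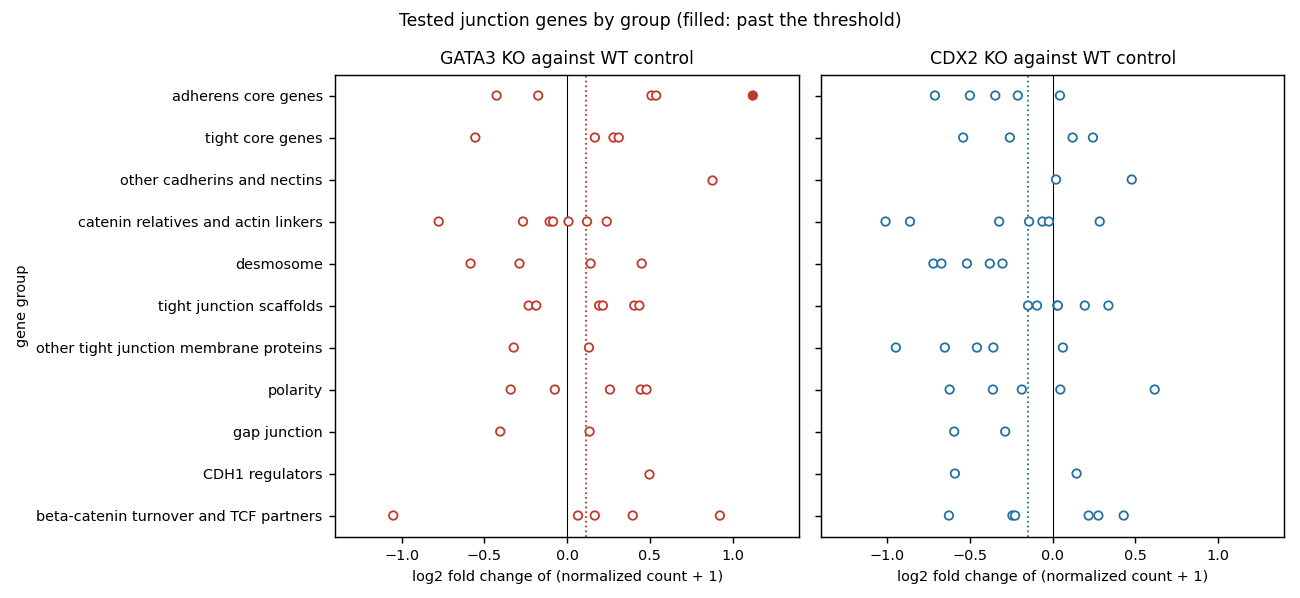
Log2 fold change of normalized count + 1 (horizontal axis) of each tested gene, by gene group (vertical axis), in GATA3 KO (left) and CDX2 KO (right) against WT control, filled where past the threshold and with dotted lines at the median of all transcripts tested. CTNNB1 in GATA3 KO, at 1.12, is the filled point, and the genes of the wider list lie between -1.05 and 0.92 in GATA3 KO.

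The transcripts whose levels followed CTNNB1 most closely over the 7 embryos of the table of GATA3 KO were MYL12B, FKBP1A and DERL2. Likeness was measured as the mean absolute difference between the deviations of 2 genes from their own means, on the log2 scale, and was 0.08, 0.13 and 0.13, against a median of 0.60 over all tested transcripts. MYL12B, a myosin regulatory light chain, had normalized counts of 41.8, 24.9 and 26.4 in WT control and 83.9, 58.2, 54.8 and 60.8 in GATA3 KO embryos. Like CTNNB1, it was highest in WT control embryo 1 and in GATA3 KO embryo 3 of their groups. Of the junction genes, CTNND1 and CTNNA1 ranked 314 and 535 among the 4270 other transcripts, F11R and CLDN4 1142 and 1165, OCLN and JUP 1889 and 2369, and CDH1 and CLDN7 3154 and 3475.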

How the data were processed

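Reads of single-blastocyst Smart-seq2 libraries (polyadenylated RNA, no molecular identifiers) were trimmed by the authors with Trimmomatic, mapped to ARS-UCD1.2 with HISAT2, counted with featureCounts and normalized with DESeq2, per the labels and the methods. The deposited signal of an embryo is its count over its size factor, set for each table separately. In every column 100% of values were whole multiples of one step (tolerance 0.05), and the counts were recovered. The authors' fold changes, standard errors, test statistics and p-values in the tables were not used. Numbers in column names tied WT control columns to samples. KO columns were tied to a group only and keep the numbers they carry. RefSeq (ARS-UCD2.0) paired 98.6% of accessions with symbols, and none of its coordinates are given.

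The test was limma 3.58.1 (R 4.3.3) on log2(normalized count + 1), with the prior variance trended on the mean. A transcript needed a mean of 10 or more, which all 9 junction genes had. Rows were adjusted over the whole table. Ratios and target genes were compared with an exact permutation test, which has 35 splits (scipy 1.17.1). Alternatives were edgeR 4.0.16, DESeq2 1.42.0, other pseudocounts, filters, scalings and fold changes, a covariate for 3 or more Y-linked counts (leaving 1 KO embryo to carry the KO effect in each table), and leaving out each embryo. The tests were checked on simulated counts.

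The 10 genes and the lists were chosen with earlier results of these data known. Named were these genes, the targets, wider-list genes past the threshold, the 2 of smallest p in each group, and the 3 most like CTNNB1, apart from 2 genes not reported here. The ratios with TJP1 could not be formed.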

Additional observations from a re-analysis of the deposited data

Results flagged for a closer look

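A KO embryo standing far from the other 3 was looked for in 32 sets of values. It was seen in 3, and chance gives 1.6. GATA3 KO embryo 3 had a CTNNB1 to JUP ratio of 1.52, and the other 3 had 0.911 to 1. CDH1 in CDX2 KO embryos was 41.9 in embryo 3, from 18 recovered counts, against 70.3 to 76.0 in the others, and that embryo had the lowest total of its table. The GATA3 normalized count of GATA3 KO embryo 6 was 9.85, below those of the other 3, the highest of which was 13.1.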

How the results depend on the processing

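Leaving out an embryo in turn, the calls of limma in the table of GATA3 KO ran from 1 without WT control embryo 2 or GATA3 KO embryo 3 to 293 without WT control embryo 1 (86 with all embryos; 2, 18, 39 and 183 without GATA3 KO embryo 4, WT control embryo 3, GATA3 KO embryo 5 and GATA3 KO embryo 6) and the junction genes among them from 0 to 1. The calls in the table of CDX2 KO ran from 0 to 1. The GATA3 KO calls were 158 with DESeq2 and 126 with edgeR on the recovered counts, 1 with the Y-linked covariate, in which 1 KO embryo carries the KO effect, 37 with a mean of at least 100, 172 without a filter and 145 with a pseudocount of 5. CTNNB1 was lost, leaving 0 junction genes, with edgeR, a pseudocount of 0.1, median-ratio rescaling, quantile normalization and the Y-linked covariate, that is in 5 of 10 settings, in which its log2 fold change ran from 0.95 to 1.13 with adjusted p from 0.0508 to 0.382 (limma and edgeR). The split of higher and lower calls was 66 and 20, but 56 and 53 after median-ratio rescaling and 48 and 57 after quantile normalization, while the median log2 fold change went from 0.11 to 0.0065 and 0.0029. The CDX2 KO calls were 10 with DESeq2, 2 with quantile normalization or no filter, and 1 with edgeR, median-ratio rescaling, a mean of at least 100 or a pseudocount of 5.

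Signs changed, or values moved, for genes that were not called. With the Y-linked covariate the KO value is that of 1 embryo, GATA3 KO embryo 6 for CLDN4, at -0.16, and CDX2 KO embryo 5 for CTNNB1, CTNND1 and F11R, at 0.28, 0.011 and 0.47. In the wider list the same covariate turned NECTIN2, VCL and CRB3 to -0.32, -0.28 and -0.07 in GATA3 KO, and EZR, CSNK1A1, PKP2, OVOL1 and CDH3 to 0.44, 0.44, 0.12, -0.83 and -0.039 in CDX2 KO. In CDX2 KO, JUP was at 0.019 with DESeq2, 0.0049 with edgeR and 0.17 after quantile normalization, which put F11R at 0.018. Leaving out an embryo, log2 fold changes ran from -0.29 to 0.0017 for JUP, from -0.21 to 0.59 for OCLN, from -0.64 to -0.20 for CDH1, from 0.025 to 0.44 for CLDN4, from -0.78 to -0.26 for CLDN7 and from 0.18 to 0.41 for F11R in GATA3 KO. In CDX2 KO they ran from -1.14 to 0.20 for CTNNB1, from -0.54 to 0.12 for JUP, from -0.13 to 0.19 for CTNNA1, from -0.16 to 0.45 for CLDN4, from -0.040 to 0.44 for CLDN7, from -0.50 to 0.12 for F11R, from -0.62 to -0.14 for CDH1, from -0.67 to -0.24 for CTNND1 and from -1.18 to -0.17 for OCLN. The differences in log2 ratio ran from 1.06 to 1.90 for CTNNB1 to CDH1 and from 0.59 to 1.19 for CTNND1 to CDH1 in GATA3 KO, and from -0.52 to 0.13 for CTNND1 to CDH1 in CDX2 KO. The cause of these shifts was not tested. No paired analysis was possible because the KO columns carry numbers that are not those of the sample labels. Some values rest on few counts, down to 3 in an embryo for CTNNB1, 4 for OCLN and 7 for CLDN7, and CDX2 had 0 in a GATA3 KO embryo.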
